A study of Saccharomyces cerevisiae with 8 samples.

Results

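The mRNA levels of hel2∆ yeast were compared with those of wild type, both with intact modification of the wobble uridine U34 in tRNA. The comparison rests on 4 samples of the 8 sequenced, namely hel2∆ replicates 1 and 2 and wild type replicates 1 and 2, taken by their strain labels and with every gene of the count table considered. Both strains were labelled as MATa derivatives of BY4741, a laboratory strain of the S288c background, with the alleles his3Δ1, leu2Δ0 and ura3Δ0. In hel2∆ the HEL2 gene was replaced by a LEU2 marker, whereas the wild type carried no marker and was also listed as met15Δ0. Growth was to mid-exponential phase in YPD, which is rich and supplies amino acids, at 30 °C and 200 rpm. Poly(A) RNA was sequenced. The study calls the replicates of its ribosome profiling, from whose harvests the RNA came, biological. A legend on mRNA levels says the same for its strains without U34 modification. The labels of the libraries used here do not mention separate cultures, and p-values measure the spread between these libraries. The other 4 samples were ncs2∆elp6∆hel2∆ and ncs2∆elp6∆ in 2 replicates each, which lack U34 modification. In these strains NCS2 was replaced by HIS3MX and ELP6 by URA3, and HEL2, where deleted, again by LEU2. They entered here to share the estimate of spread and for a test of whether the difference between strains with HEL2 replaced and intact was the same in both backgrounds.

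Hel2 is a RING-type ubiquitin ligase that recognises collided ribosomes and ubiquitinates proteins of the small subunit. This mark lets the RQT helicase complex take the stalled ribosome apart, after which ribosome-associated quality control (RQC) removes the nascent chain and the mRNA can be cleaved and degraded. Because the HEL2 deletion carried LEU2 into a strain otherwise without it, deletion of HEL2 and presence of the marker cannot be told apart in this comparison. Leu2 catalyses the step of leucine synthesis after Leu1. The substrate of Leu1, α-isopropylmalate, is the co-activator of the transcription factor Leu3. LEU2 and URA3 themselves were not analysed here.

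The 4 libraries held 20523166 and 22477796 counts in hel2∆, and 19264361 and 13252947 counts in wild type. Of 6337 genes in the table, 6087 had enough counts to be tested. Replicates differed by more than sampling noise, with a chi-square per degree of freedom of 40.5 in hel2∆ and 27.6 in wild type. HEL2 (YDR266C, chromosome IV, 1000104 to 1002023 in sacCer3) had 0 and 0 counts in hel2∆ against 1893 and 1246 in wild type. Set against a floor of 3 counts per library, its level was at least 661-fold lower in hel2∆. MET17, the gene also called MET15, had 0 and 0 counts in hel2∆ and 6 and 1 in wild type, so that its transcript was at or near 0 in both strains although the label of hel2∆ does not list the met15 deletion. HIS3 was counted at 175 and 180 CPM (the count divided by the scaled size of its library) in hel2∆ and 141 and 147 CPM in wild type, with an adjusted p of 0.229. The labelled MATa mating type was reflected in the markers of a cells, with STE2, the α-factor receptor, at 814 and 881 CPM in hel2∆ and 775 and 936 CPM in wild type. MF(ALPHA)1, the pheromone gene of α cells, was near 0 in all 4 libraries, and none of the 7 a cell markers, 4 α cell markers or 16 meiosis genes passed the test.

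A small set of transcripts differed between hel2∆, with HEL2 replaced by LEU2, and wild type, and most of these belonged to nutrient metabolism rather than to translation or quality control. Several genes of leucine synthesis and of export of its precursors were lower, several genes of arginine, lysine, histidine and aromatic amino acid synthesis were higher, 3 phosphate genes were higher, and 3 iron genes and 3 general stress genes were lower. With edgeR's quasi-likelihood test and Benjamini-Hochberg adjustment, 40 of 6087 genes (0.657%) had an adjusted p under 0.05, and 313 (5.14%) had an unadjusted p under 0.05. Of the 40, 19 (0.312% of genes tested) were higher and 21 (0.345%), HEL2 included, were lower. Only 14 changed by more than 1 on the log2 scale, 3 higher and 11 lower. In all 40 genes, both hel2∆ libraries lay on one side of both wild type libraries. Over all genes tested, 837 (13.8%) had both hel2∆ libraries above both wild type libraries and 923 (15.2%) had both below. When library totals replaced the TMM scaling, 32 genes passed, 11 higher and 21 lower. Each of the 4 libraries mattered to the smaller changes. The 40 calls became 19 without hel2∆ replicate 1, 23 without hel2∆ replicate 2, 30 without wild type replicate 1 and 23 without wild type replicate 2. Among the 40, 19 genes passed whichever library was left out, 21 lost the call in at least 1 case, and 10 passed only with all 4 libraries present.

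**Figure D1:**
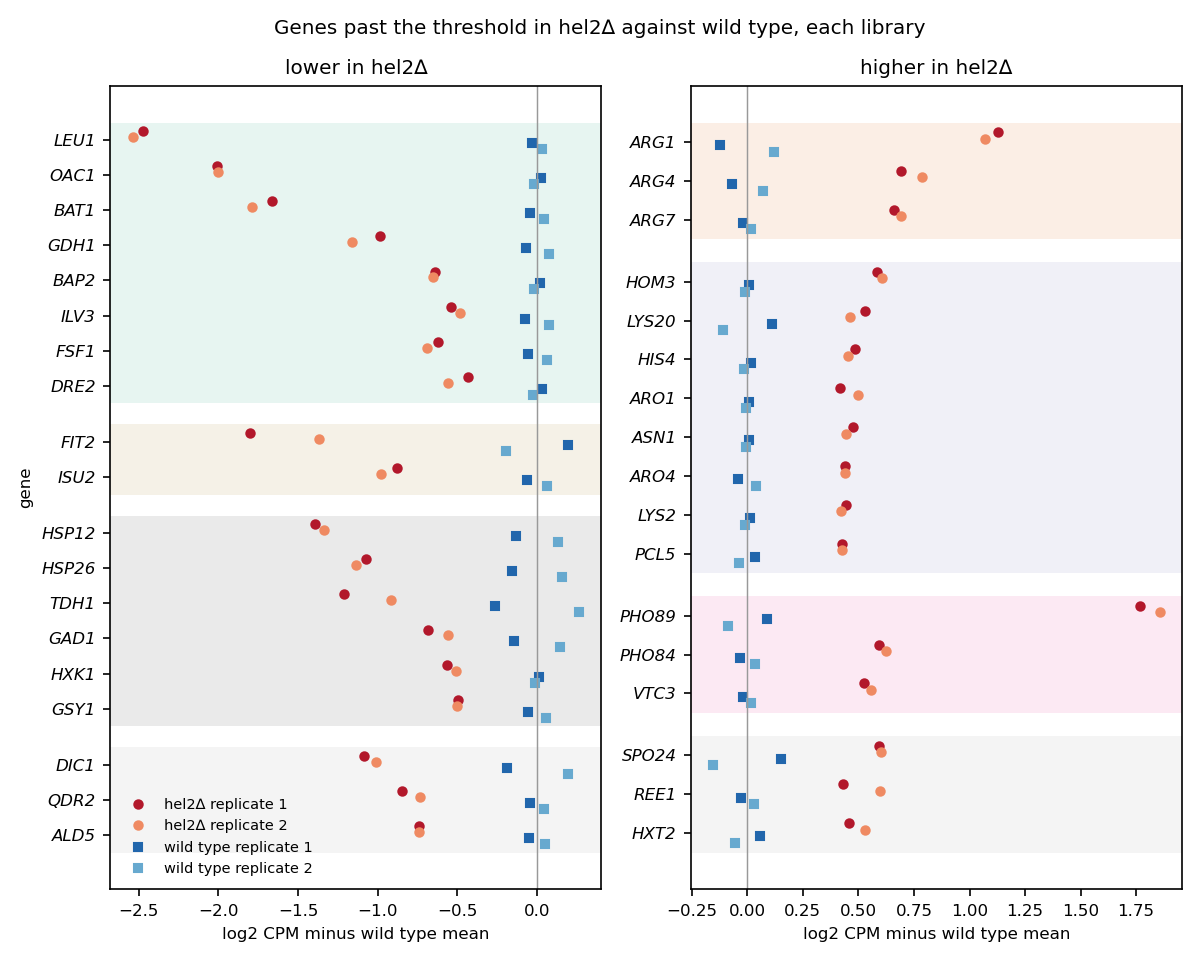
Level of 36 of the 40 genes past the threshold in each library, as log2 CPM minus the mean of the 2 wild type libraries (x axis), with genes lower in hel2∆ on the left and genes higher on the right. Circles are hel2∆ libraries, squares are wild type libraries, and shading groups genes by process, from top to bottom the leucine list with BAP2, FSF1 and DRE2, then iron, stress and glucose metabolism, and other genes on the left, and arginine, other amino acids with PCL5, phosphate and other genes on the right. HEL2 and LSO1, with counts near 0, are among the genes left out. LEU1, OAC1 and BAT1 stand farthest to the left, and PHO89 and ARG1 farthest to the right.

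Among the genes past the threshold, apart from HEL2 and the weakly expressed LSO1, the largest falls were in genes of leucine synthesis. LEU1 encodes isopropylmalate isomerase, the cytosolic enzyme just before Leu2, and lies on chromosome VII at 476313 to 478652. It had 134 and 128 CPM in hel2∆ against 726 and 760 CPM in wild type. The libraries of a strain were within a few percent of each other, while the strains were far apart. LEU1 fell by 2.51 ± 0.08 on the log2 scale (SE), which is 5.69-fold, with an adjusted p of 3.42e-07. OAC1 encodes the mitochondrial carrier that exports isopropylmalate to the cytosol. Its level was 40.7 and 40.8 CPM in hel2∆ and 166 and 161 CPM in wild type, a 4.01-fold fall with an adjusted p of 5.39e-07. BAT1, the mitochondrial aminotransferase that makes leucine, isoleucine and valine from their keto acids, had 296 and 271 CPM in hel2∆ and 908 and 967 CPM in wild type. BAT1 was 3.30-fold lower in hel2∆, with an adjusted p of 4.3e-06. GDH1, the NADP-dependent glutamate dehydrogenase that supplies glutamate as amino donor, had 216 and 191 CPM in hel2∆ against 407 and 450 CPM in wild type, a change of -1.07 ± 0.09 (log2, SE). ILV3, the dihydroxyacid dehydratase shared by the valine and leucine branches, was lower by a smaller amount, at 501 and 523 CPM in hel2∆ and 693 and 769 CPM in wild type (log2 fold change -0.51, adjusted p = 0.0302). ILV3 did not pass without hel2∆ replicate 1, hel2∆ replicate 2 or wild type replicate 2, with adjusted p-values between 0.109 and 0.26.

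Not every gene of the pathway moved. Of the 13 genes of the leucine and branched-chain list, 5 fell and none rose, 8 had a log2 fold change below 0, and the median was -0.26 beside -0.004 over all genes. The 8 genes with both hel2∆ libraries below both wild type libraries made up 61.5% of the list, beside 15.2% of all genes. BAT2 and LEU3 (15.4%, beside 13.8% of all genes) had both above. LEU4, the main isopropylmalate synthase, had 278 and 274 CPM in hel2∆ and 328 and 335 CPM in wild type (adjusted p = 0.231), and its paralog LEU9 had 255 and 238 CPM in hel2∆ and 254 and 234 CPM in wild type. ILV5, the acetohydroxyacid reductoisomerase, had 1030 and 1080 CPM in hel2∆ against 1280 and 1450 CPM in wild type, with an adjusted p of 0.271, and passed with DESeq2 only (adjusted p = 0.035). ILV2 and ILV6, the catalytic and regulatory subunits of acetolactate synthase, had log2 fold changes of -0.14 and 0.27. ILV1, threonine deaminase of the isoleucine branch, had one of 0.00. BAT2, the cytosolic counterpart of BAT1, had 454 and 481 CPM in hel2∆ and 389 and 377 CPM in wild type, a log2 fold change of 0.29 that did not pass (adjusted p = 0.224). The transcript of LEU3 itself was at 77.7 and 82.9 CPM in hel2∆ and 76.0 and 76.0 CPM in wild type, with a log2 fold change of 0.08 ± 0.10.

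**Figure D2:**
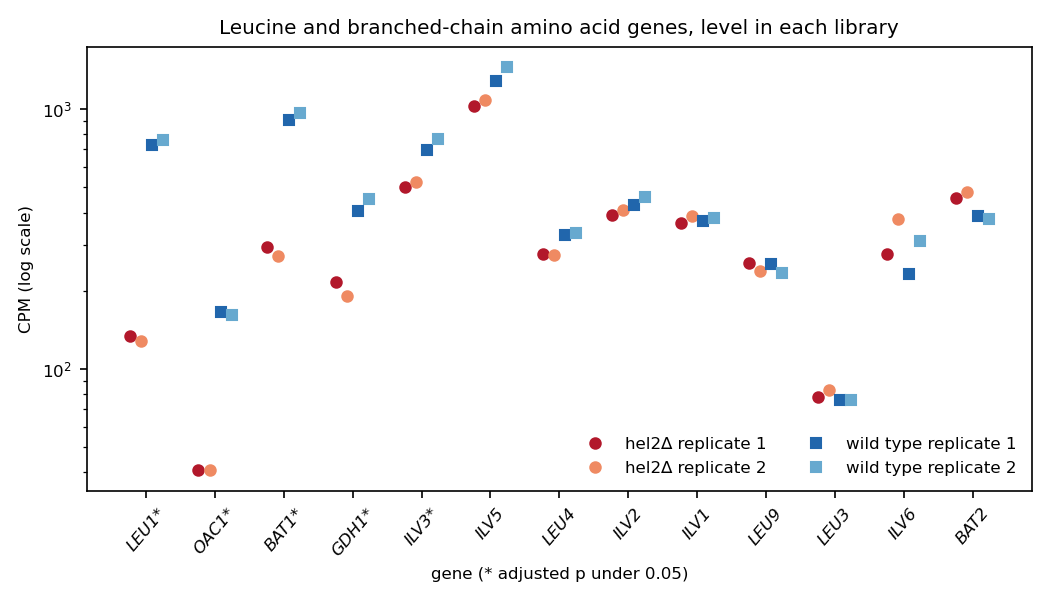
CPM of the 13 leucine and branched-chain genes in each library on a log axis, ordered by log2 fold change. Circles are hel2∆ libraries and squares wild type libraries, and asterisks mark genes with an adjusted p under 0.05. LEU1, OAC1, BAT1, GDH1 and ILV3 are separated by strain, whereas the libraries of LEU9, ILV1 and ILV6 overlap.

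Leu3 binds the sequence CCGGNNCCGG, where N is any base. The letters were searched on both strands in the 500 bases before the start codon in the RefSeq annotation of R64, the assembly also called sacCer3. They occurred in 16 of 6000 promoters (0.267%) and in 6 of the 21 genes that were lower in hel2∆ (28.6%), but in none of the 19 that were higher. The sites of these 6 genes, and those of ILV5 and ILV2 from the leucine list, are shown to let the match be seen within its surroundings. They are written 5′ to 3′ on the strand of the gene, with the searched letters in capitals.
LEU1 (chrVII:478850-478879, minus strand): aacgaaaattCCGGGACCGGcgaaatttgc
BAT1 (chrVIII:517375-517404, plus strand): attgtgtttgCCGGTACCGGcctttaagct
GDH1 (chrXV:1043427-1043456, minus strand): aaccaatgcgCCGGAACCGGcccatgcatt
BAP2 (chrII:376057-376086, minus strand): ttttgtgggaCCGGAACCGGcatccacatt
FSF1 (chrXV:832176-832205, minus strand): gtactggcgtCCGGTACCGGagcgtaccag
DRE2 (chrXI:576128-576157, minus strand): ttgacatatcCCGGTACCGGaataagtccg
ILV5 (chrXII:839611-839640, minus strand): gcggtctcctCCGGTACCGGttctgccacc
ILV2 (chrXIII:483606-483635, plus strand): ccggagcctgCCGGTACCGGcttggcttca
The match begins 217 bases before the start codon in LEU1 and 147 bases before it in BAT1. OAC1, ILV3 and DIC1 do not hold these exact letters in the window. A match is a description of the sequence and not evidence of binding.

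Of the 16 genes with this sequence, 15 could be tested, and beside the 6 that fell none rose. Both hel2∆ libraries were below both wild type libraries in 10 of the 15, the 6 that fell included, beside 15.2% of all genes. They were above in none, and the remaining 5 overlapped. BAP2, a plasma membrane permease for leucine, isoleucine and valine, had 266 and 264 CPM in hel2∆ and 421 and 410 CPM in wild type (log2 fold change -0.65, adjusted p = 0.00455). FSF1, a mitochondrial membrane protein of the sideroflexin family, had 148 and 141 CPM in hel2∆ and 218 and 237 CPM in wild type. DRE2, which acts in assembly of cytosolic iron-sulfur clusters, had 111 and 102 CPM in hel2∆ and 153 and 147 CPM in wild type (adjusted p = 0.0424). Both genes fell, but DRE2 did not pass when any 1 library was left out (adjusted p of 0.118 to 0.256), and FSF1 passed only where the library left out was wild type replicate 1 (adjusted p of 0.0543 to 0.0906 otherwise). Among the 9 that did not pass, ATP5, NPL3, GAT1, MGM101 and AAN1 had overlapping libraries. ILV5, ILV2, GAL11 and BRO1 had log2 fold changes of -0.38, -0.14, -0.08 and -0.08.

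Several arginine genes were higher in hel2∆. ARG1, argininosuccinate synthetase, had 75.3 and 72.4 CPM in hel2∆ and 31.7 and 37.5 CPM in wild type, a 2.14-fold rise with an adjusted p of 0.0018. This rise was larger than the spread between libraries. ARG4, argininosuccinate lyase, had 197 and 210 CPM in hel2∆ and 116 and 128 CPM in wild type, and ARG7, the mitochondrial ornithine acetyltransferase, had 140 and 143 CPM in hel2∆ and 87.5 and 89.7 CPM in wild type. Their log2 fold changes were 0.74 and 0.67, with adjusted p-values of 0.0021 and 0.00204. ARG1, ARG4 and ARG7 passed in all 10 alternative settings.

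The list of 15 arginine genes had 4 that rose and none that fell, with a median log2 fold change of 0.23. In 10 members (66.7%) both hel2∆ libraries were above both wild type libraries, beside 13.8% of all genes. ARG3, ornithine carbamoyltransferase, had 12.9 and 18.1 CPM in hel2∆ and 8.14 and 9.40 CPM in wild type (adjusted p = 0.224). CPA1, which also acts in arginine synthesis, had 113 and 126 CPM in hel2∆ and 98.7 and 97.5 CPM in wild type (adjusted p = 0.34). The log2 fold changes of ORT1, the mitochondrial ornithine carrier, and of ARG5,6, ARG2 and ARG8, which act before ornithine, were 0.34, 0.14, 0.03 and -0.02. ARG80, ARG81 and ARG82, whose products act in the repression of arginine genes by arginine, had values of 0.23, 0.12 and -0.06. The catabolic genes CAR1, arginase, and CAR2, ornithine transaminase, had values of 0.05 and -0.20 with overlapping libraries.

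Some genes of other amino acid pathways were also higher in hel2∆. Of 47 genes, 7 rose and none fell, and the median was 0.17. Both hel2∆ libraries were above both wild type libraries in 34 (72.3%), beside 13.8% of all genes. HOM3, aspartate kinase at the entry to threonine and methionine synthesis, had 238 and 242 CPM in hel2∆ and 160 and 158 CPM in wild type (log2 fold change 0.60, adjusted p = 0.00542). LYS20, homocitrate synthase of lysine synthesis, had 424 and 404 CPM in hel2∆ and 317 and 272 CPM in wild type. Because LYS21 is nearly identical to LYS20, with 240 and 236 CPM in hel2∆ and 194 and 208 CPM in wild type, the division of reads between them is uncertain. HIS4, which serves several steps of histidine synthesis, had 637 and 623 CPM in hel2∆ and 460 and 451 CPM in wild type. LYS2, aminoadipate reductase, had 192 and 189 CPM in hel2∆ and 142 and 140 CPM in wild type. In HIS4 and LYS2 the replicates of each strain lay close together beside the difference between strains. ARO1 and ARO4 of the shikimate pathway had log2 fold changes of 0.46 and 0.44, and ASN1, asparagine synthetase, one of 0.46. None of the 7 genes that rose passed when only the libraries of hel2∆ and wild type were fitted, with an adjusted p of 0.0588 for HOM3. LYS2, ARO1, ARO4 and LYS20 also did not pass when library totals replaced the TMM scaling. HOM3 kept the call whichever library was left out, at log2 fold changes of 0.59 to 0.61. ASN1, ARO1, ARO4, HIS4 and LYS2 passed only with all 4 libraries present, and LYS20 passed only where the library left out was wild type replicate 1, with adjusted p-values up to 0.34 otherwise.

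These pathways are known targets of Gcn4, the transcriptional activator of amino acid synthesis whose own production is set mainly at translation. The GCN4 transcript was at 935 and 875 CPM in hel2∆ and 856 and 846 CPM in wild type, a log2 fold change of 0.09 that did not pass. PCL5, a cyclin that directs the degradation of Gcn4 protein and is itself induced by Gcn4, was the 1 member of 13 in the list of Gcn4 regulators to pass, at 112 and 112 CPM in hel2∆ and 85.4 and 81.3 CPM in wild type (log2 fold change 0.43, adjusted p = 0.0302). It did not pass when any 1 library was left out (adjusted p of 0.107 to 0.275). The letters TGACTC, the core of a Gcn4 site, or their complement were present in 12 of the 19 promoters of genes that rose (63.2%), in 8 of the 21 of genes that fell (38.1%), and in 759 of 6000 (12.7%) overall. LEU1, BAT1, ILV3 and GDH1, which fell, held them as well. In the arginine list 13 of 15 promoters (86.7%) had a match, 1 of which is shown here for each of ARG1, ARG4 and ARG7.
ARG1 (chrXV:218856-218881, plus strand): gattttttagTGACTCatgtcgcatt
ARG4 (chrVIII:141566-141591, minus strand): agtagatgaaTGACTCactttttgga
ARG7 (chrXIII:396516-396541, minus strand): acaggtaggaTGACTCactgcgtaat
The capitals mark the searched letters. The match lay 345 bases before the start codon of ARG1, 179 bases before that of ARG4 and 152 bases before that of ARG7.

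Among phosphate transport and storage genes, 3 were higher in hel2∆. In yeast, Pho84 and Pho89 import phosphate across the plasma membrane, and the VTC complex polymerises it into vacuolar polyphosphate. The activator Pho4 drives these genes when phosphate is scarce. PHO89, the sodium-coupled transporter, had 23.9 and 25.4 CPM in hel2∆ against 7.46 and 6.60 CPM in wild type. This 3.49-fold rise (log2 fold change 1.80 ± 0.16, adjusted p = 0.000578) was the largest among the genes that passed. PHO84, the high-affinity proton-coupled transporter, had 834 and 851 CPM in hel2∆ and 540 and 566 CPM in wild type, a log2 fold change of 0.61 with an adjusted p of 0.00455, which became 0.0588 when only the libraries of hel2∆ and wild type were fitted. An annotated non-coding gene overlaps PHO84, and whether counting used the strand is not given in the sources used here. VTC3 had 414 and 423 CPM in hel2∆ and 284 and 291 CPM in wild type. It rose by 0.54, but lost the call when any 1 library was left out, with adjusted p-values from 0.0521 to 0.0674.

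In the phosphate list of 26 genes, 3 rose and none fell, and the median was 0.15. Both hel2∆ libraries were above both wild type libraries in 14 (53.8%), beside 13.8% of all genes. Members of the same regulon that did not pass had values such as 119 and 86.6 CPM in hel2∆ against 67.5 and 52.1 CPM in wild type for SPL2, which encodes a regulator of low-affinity phosphate uptake (adjusted p = 0.129), and 590 and 527 CPM in hel2∆ against 453 and 391 CPM in wild type for VTC4, the polyphosphate polymerase (adjusted p = 0.147). The secreted acid phosphatase PHO5 had 107 and 107 CPM in hel2∆ and 79.4 and 88.2 CPM in wild type. PHO11 and PHO12, near-identical acid phosphatase genes, had log2 fold changes of 1.31 and 1.20 that did not pass and whose reads cannot be divided between them with certainty. The vacuolar phosphatase PHO8, the kinase inhibitor PHO81, VTC1 and VTC2 had values from 0.18 to 0.34. PHM8, a nucleotide phosphatase, went the other way, with 24.2 and 26.9 CPM in hel2∆ and 30.3 and 38.9 CPM in wild type (adjusted p = 0.709). The transcripts of the regulators PHO4, PHO2, PHO80 and PHO85 had log2 fold changes of -0.16, 0.03, 0.01 and -0.11, and the low-affinity transporters PHO87, PHO90 and PHO91 values of 0.01, 0.08 and -0.01.

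The letters CACGTG, to which Pho4 binds, occurred in 16 of 26 promoters of this list (61.5%) and in 374 of 6000 overall (6.23%). The 3 phosphate genes that rose held 5 matches, given here because they are the genes on which this result turns.
PHO89 (chrII:798830-798855, minus strand): gacaatgcagCACGTGggagacaaat
PHO84 (chrXIII:26221-26246, minus strand): ttaatagttcCACGTGgacgtgttat
PHO84 (chrXIII:26199-26224, minus strand): ttatttccagCACGTGgggcggaaat
VTC3 (chrXVI:517348-517373, minus strand): tgcgagggccCACGTGgcttaataca
VTC3 (chrXVI:517314-517339, minus strand): cagtcgcaagCACGTGcatgcgattt
Capitals again mark the searched letters, which lay 323 bases before the start codon of PHO89. The same letters were also present before genes that did not pass, such as PHO5, SPL2 and VTC4, and before HXK1 and TDH1, which fell.

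Of the iron genes, some of those for siderophore iron and iron-sulfur clusters fell. FIT2 encodes a cell wall mannoprotein that retains iron bound to siderophores. It had 45.0 and 60.7 CPM in hel2∆ against 179 and 137 CPM in wild type, a 2.99-fold fall with a log2 fold change of -1.58 ± 0.17 and an adjusted p of 0.00191. ISU2, a mitochondrial scaffold for iron-sulfur clusters, had 57.8 and 54.0 CPM in hel2∆ and 102 and 111 CPM in wild type (adjusted p = 0.00284), whereas its paralog ISU1 had 53.3 and 47.9 CPM in hel2∆ and 46.0 and 45.1 CPM in wild type and did not pass. LSO1, a small protein made under iron limitation, was detected with only 1 and 8 counts in hel2∆ and 43 and 31 counts in wild type. LSO1 passed with an adjusted p of 0.0451, but not without hel2∆ replicate 1, wild type replicate 1 or wild type replicate 2 (adjusted p of 0.121 to 0.235), so its fall rests on few counts. FIT3 had 30.0 and 68.8 CPM in hel2∆ and 121 and 171 CPM in wild type (adjusted p = 0.117), and FIT1 did not pass either, at -0.83 on the log2 scale (adjusted p = 0.543). The high-affinity uptake genes FET3, a ferroxidase, and FTR1, its permease partner, had log2 fold changes of -0.18 and -0.15, and the activator AFT1 one of 0.05. Of 32 iron genes 3 fell and none rose, with a median of -0.13. Both hel2∆ libraries were below both wild type libraries in 12 (37.5%), beside 15.2% of all genes. The median over the list of mean-centred levels was -0.133 in hel2∆ replicate 1 and 0.002 in hel2∆ replicate 2, so these replicates differed. It was 0.108 in wild type replicate 1 and 0.075 in wild type replicate 2.

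Some general stress genes were lower in hel2∆. HSP12, a membrane-associated hydrophilin, had 15.0 and 15.6 CPM in hel2∆ against 35.9 and 43.1 CPM in wild type. It was 2.57-fold lower (log2 fold change -1.36 ± 0.10, adjusted p = 0.00021). GAD1, glutamate decarboxylase, had 56.8 and 62.1 CPM in hel2∆ and 82.7 and 101 CPM in wild type, and HXK1, a hexokinase repressed by glucose, had 236 and 246 CPM in hel2∆ and 353 and 347 CPM in wild type. Both fell, with adjusted p-values of 0.0302 and 0.00544. GAD1 lost the call without hel2∆ replicate 1, hel2∆ replicate 2 or wild type replicate 2 (adjusted p up to 0.235), and HXK1 without hel2∆ replicate 1 (adjusted p = 0.0663). In the list of 30 general stress markers 3 fell and none rose, and 29 of the 30 had a log2 fold change below 0. The median was -0.34, and both hel2∆ libraries were below both wild type libraries in 21 (70.0%), beside 15.2% of all genes. The largest differences that did not pass were those of DDR2, with 6.92 and 10.8 CPM in hel2∆ and 14.0 and 16.8 CPM in wild type, and of SOL4, with 9.62 and 9.56 CPM in hel2∆ and 14.4 and 18.1 CPM in wild type. CTT1, the cytosolic catalase, did not pass, at -0.35 on the log2 scale (adjusted p = 0.306).

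In trehalose and glycogen metabolism, 1 of 20 genes fell and none rose, and the median was -0.19. Both hel2∆ libraries were below both wild type libraries in 15 (75.0%), beside 15.2% of all genes. GSY1, glycogen synthase, had 52.3 and 52.0 CPM in hel2∆ and 70.9 and 76.8 CPM in wild type (log2 fold change -0.50, adjusted p = 0.0415), and did not pass when any 1 library was left out (adjusted p of 0.0954 to 0.34). GPH1, glycogen phosphorylase, had 39.3 and 44.5 CPM in hel2∆ and 57.5 and 65.9 CPM in wild type (adjusted p = 0.0757). PGM2, phosphoglucomutase, had 53.6 and 57.6 CPM in hel2∆ and 71.3 and 80.8 CPM in wild type (adjusted p = 0.117). TDH1, a glyceraldehyde-3-phosphate dehydrogenase made mainly outside rapid growth, fell, with 51.9 and 63.7 CPM in hel2∆ and 100 and 144 CPM in wild type. TDH1 passed only with wild type replicate 2 present and with both hel2∆ libraries, the adjusted p-values being 0.0906 to 0.331 otherwise. The transcripts of MSN2 and MSN4, whose products activate such genes through the letters AGGGG, had log2 fold changes of -0.07 and -0.12. AGGGG or its complement was present in 27 of 30 promoters of the stress list (90.0%), in 16 of 20 of the carbohydrate list (80.0%) and in 2044 of 6000 promoters overall (34.1%).

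Chaperone genes did not share this pattern. HSP26, a small heat shock protein that gathers misfolded proteins, had 22.6 and 21.7 CPM in hel2∆ and 42.7 and 53.1 CPM in wild type, and its 2.16-fold fall (adjusted p = 0.0018) was the 1 call among 35 cytosolic and mitochondrial chaperones of the list. Over all genes tested, 0.657% were called. The median of the chaperone list was -0.01, and SSA1, HSP82 and HSP104 had log2 fold changes of -0.03, 0.03 and -0.15. HSF1, the activator of many chaperone genes, was at 107 and 102 CPM in hel2∆ and 110 and 91.5 CPM in wild type.

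The remaining genes past the threshold had varied roles. QDR2, a plasma membrane multidrug transporter, had 113 and 122 CPM in hel2∆ against 197 and 210 CPM in wild type (log2 fold change -0.79, adjusted p = 0.0012). ALD5, a mitochondrial aldehyde dehydrogenase, had 177 and 177 CPM in hel2∆ and 285 and 306 CPM in wild type (log2 fold change -0.74). DIC1, the mitochondrial dicarboxylate carrier, had 23.3 and 24.5 CPM in hel2∆ and 43.3 and 56.4 CPM in wild type, but did not pass without hel2∆ replicate 1 or hel2∆ replicate 2 (adjusted p of 0.0753 and 0.0526). HXT2, a glucose transporter of high affinity, had 429 and 451 CPM in hel2∆ and 325 and 301 CPM in wild type. It was the 1 of 19 hexose transport and glucose sensing genes to pass, beside 0.657% of all genes tested. REE1, which acts on enolase, and SPO24, a short gene named for sporulation, rose by 0.52 and 0.59. These last rises were less firm. HXT2 and SPO24 passed in the absence of wild type replicate 1 and not in that of any other library (adjusted p up to 0.205 and 0.273), and REE1 passed with all 4 libraries only (adjusted p of 0.0663 to 0.257 otherwise).

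**Figure D3:**
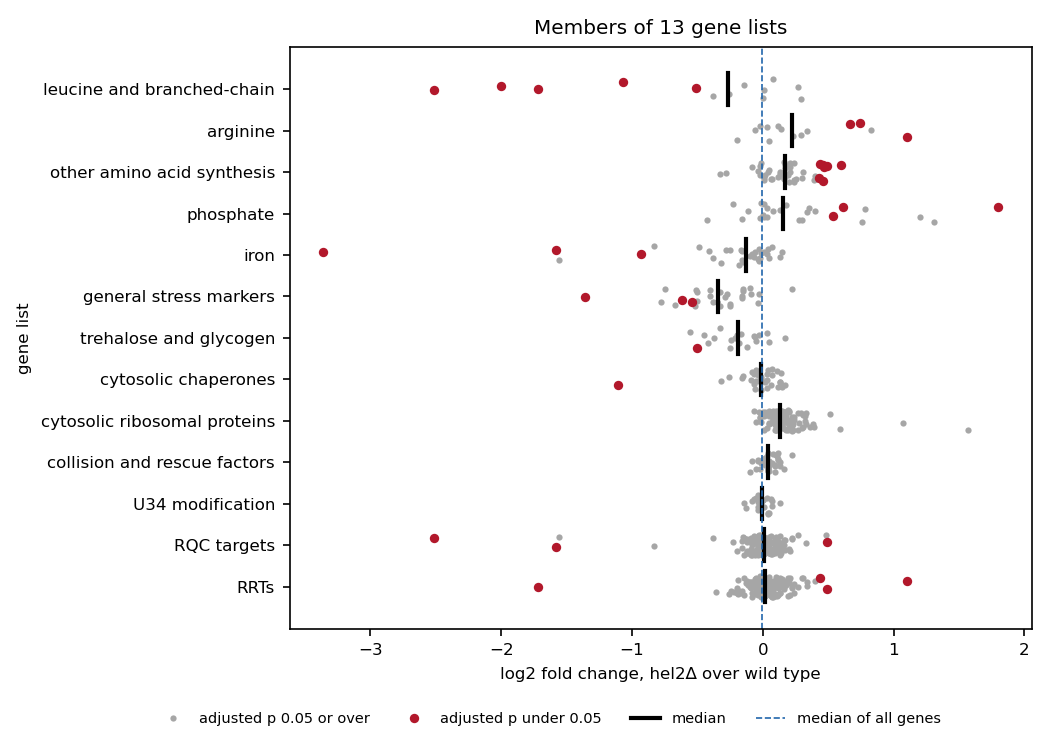
Log2 fold change of hel2∆ over wild type (x axis) for tested members of 13 gene lists (rows). Red points have an adjusted p under 0.05, grey points do not, black bars are list medians and the dashed line is the median of all genes. HEL2, with a level of 0 in hel2∆, is among the genes left out of the points. Red points lie to the left of the line in the leucine, iron and stress lists and to the right in the arginine, other amino acid and phosphate lists.

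Genes of the quality control pathway itself were examined because Hel2 acts in it. Apart from HEL2, none of the 35 genes in the list of collision sensing and ribosome rescue passed, and the median was 0.04. Both hel2∆ libraries were above both wild type libraries in 13 of them (37.1%), beside 13.8% of all genes. Both were below in 2 (5.71%), HEL2 included, beside 15.2% of all genes. SLH1, the helicase of the RQT complex, had 64.8 and 69.7 CPM in hel2∆ and 67.2 and 68.5 CPM in wild type. The nuclease CUE2, the rescue factor DOM34 and the RQC ligase RKR1, also called LTN1, had log2 fold changes of 0.02, 0.13 and 0.04. MBF1, which binds collided ribosomes, was at 422 and 421 CPM in hel2∆ and 415 and 414 CPM in wild type. SDD1, whose mRNA carries a natural stall sequence for Hel2, had 5.25 and 5.50 CPM in hel2∆ and 3.65 and 7.15 CPM in wild type, levels that overlapped at this low depth. In the list of 22 U34 modification genes none passed, the median was -0.01, and log2 fold changes lay between -0.14 and 0.13. In lists of these sizes an absence of calls says little, since only 0.657% of all genes tested passed.

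Transcripts that the study had classed from disome footprints in cells without U34 modification were followed in the present strains as lists of names. The names follow the labels of the study's supplement. Their sizes match a figure legend of the study, which gives 137 RQC targets and 188 RRTs. A sentence in the study's results gives these sizes the other way round. If the labels were exchanged, the values given here for one list would belong to the other. Of 137 RQC targets, 1 rose (HXT2) and 2 fell (LEU1 and FIT2), with a median of 0.01. Of 188 RQC-refractory transcripts (RRTs), 4 rose (ARG1, LYS20 and ARO4 among them) and 1 fell (BAT1), also with a median of 0.01. Of all genes tested, 0.312% rose and 0.345% fell. The share with both hel2∆ libraries above both wild type libraries was 12.4% in RQC targets and 17.6% in RRTs, beside 13.8% of all genes. The share with both below was 11.7% and 5.85% in the same order, beside 15.2% of all genes. Pairs of CGA or GCA with AAA or CAA were counted in each coding sequence. Of these codons, GCA, AAA and CAA are read by tRNAs with modified U34. The median log2 fold change was 0.003 in the 300 genes with 2 or more GCA-AAA pairs, -0.004 in the 152 with 2 or more GCA-CAA pairs, -0.026 in the 30 with 2 or more CGA-AAA pairs and -0.055 in the 7 with 2 or more CGA-CAA pairs. The 4272 genes without a GCA-AAA pair had a median of -0.004. In the same order of pairs, 10.7%, 13.8%, 26.7% and 28.6% had both hel2∆ libraries below both wild type libraries. Both were above in 8.33%, 16.4%, 0.0% and 14.3%. The last 2 shares of each series rest on the 30 and 7 genes. CGA-CGA pairs were counted as well, and the 21 genes with 1 such pair had a median of 0.001.

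The genes next to HEL2 on chromosome IV were compared because replacement with a marker can alter neighbours. PEX10 and CIA1, on either side, had 26.0 and 28.0 CPM in hel2∆ against 28.9 and 31.6 CPM in wild type, and 45.8 and 45.4 CPM in hel2∆ against 38.8 and 42.8 CPM in wild type. Neither passed, nor did AKR1, DIN7, MSW1 or CCC2, whose log2 fold changes lay between -0.44 and -0.05.

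Of 40 lists examined, 24 held no gene past the threshold and 32 had a median within 0.15 of that of all genes. Because 0.657% of all genes tested passed, a short list without a call is not unusual. Cytosolic ribosomal protein genes had a median of 0.13 over 134 genes with none called. Both hel2∆ libraries were above both wild type libraries in 66 of them (49.3%), beside 13.8% of all genes. Their median centred level was 0.141 in hel2∆ replicate 1 and -0.007 in hel2∆ replicate 2, so this difference came mainly from 1 library. The 7 a cell markers had a median of 0.19, with MFA1 at 117 and 87.0 CPM in hel2∆ and 52.3 and 60.7 CPM in wild type (adjusted p = 0.998) and MFA2 at 125 and 116 CPM in hel2∆ and 74.3 and 81.0 CPM in wild type. The 12 hypoxic cell wall and sterol genes tested had a median of -0.18, again unevenly, at -0.306 in hel2∆ replicate 1 and 0.079 in hel2∆ replicate 2. DAN1, an anaerobic mannoprotein of that list, had 14 and 15 counts in hel2∆ and 58 and 82 in wild type. Its log2 fold change of -2.68 did not pass (adjusted p = 0.0757). Proteasome, mitochondrial ribosomal protein, ribosome biogenesis, respiratory chain, ergosterol, and sulfate and methionine genes had medians of 0.03, -0.05, 0.03, -0.07, 0.01 and 0.08 and no calls.

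The same replacement of HEL2 by LEU2 could also be followed between ncs2∆elp6∆hel2∆ and ncs2∆elp6∆, strains that lack U34 modification and share no library with the comparison above, although one model gave the spread for both. There, 422 genes (6.93%) passed. Of the 40 genes past the threshold in hel2∆, 32 (80.0%) also passed in that background, which is 7.58% of the 422. HEL2 included, 25 of these changed in the same direction and 7 in the opposite one. The leucine genes kept their direction. LEU1 had 119 and 135 CPM in ncs2∆elp6∆hel2∆ against 982 and 1000 CPM in ncs2∆elp6∆, a log2 fold change of -2.97, and OAC1 and BAT1 had changes of -2.24 and -1.97. In both backgrounds the strain without HEL2 carried LEU2 and the strain it was set against did not. ARG1, ARG4, ARG7, LYS20, HIS4, LYS2, ARO4, ASN1 and PCL5 rose in both backgrounds, whereas HOM3 and ARO1 passed only in the comparison with modification intact, and the difference between backgrounds did not pass for either gene (adjusted p of 0.0951 and 0.461).

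The difference between the 2 backgrounds, tested as an interaction, passed for 69 genes (1.13%), of which 12 were among the 40. HSP12, HSP26, HXK1, GAD1 and FIT2 fell in hel2∆ and rose in the triple mutant relative to the double mutant, and PHO84 and VTC3 did the reverse, so that these made up the 7. HSP26 had 627 and 556 CPM in ncs2∆elp6∆hel2∆ against 67.4 and 67.2 CPM in ncs2∆elp6∆, and its changes in the 2 backgrounds differed by 4.24 ± 0.16 on the log2 scale (adjusted p = 8.82e-07). HSP12 had 238 and 227 CPM in ncs2∆elp6∆hel2∆ and 76.8 and 75.2 CPM in ncs2∆elp6∆, a difference of 2.98 between the changes. PHO84 was counted at 117 and 107 CPM in ncs2∆elp6∆hel2∆ and 192 and 182 CPM in ncs2∆elp6∆, with a difference of -1.35. Among the genes of leucine synthesis none passed, and the differences were -0.46 for LEU1, -0.23 for OAC1 and -0.24 for BAT1, with adjusted p-values of 0.115, 0.343 and 0.369. MET17 counts were 5918 and 6651 in ncs2∆elp6∆hel2∆ and 4321 and 5084 in ncs2∆elp6∆, unlike the counts near 0 in hel2∆ and wild type. U34 modification, MET17 and the HIS3MX and URA3 markers therefore cannot be told apart in the interaction.

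**Figure D4:**
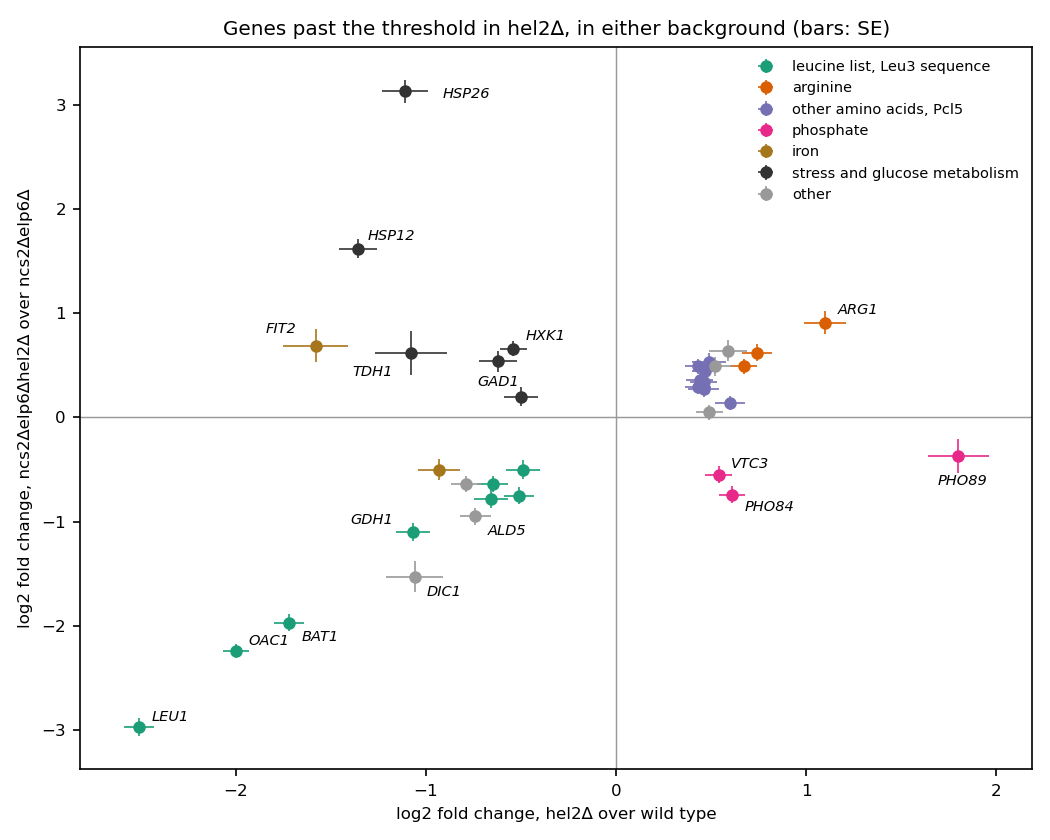
Log2 fold change with HEL2 replaced by LEU2 with U34 modification (x axis, hel2∆ over wild type) and without it (y axis, ncs2∆elp6∆hel2∆ over ncs2∆elp6∆) for 36 of the 40 genes past the threshold in hel2∆, without HEL2 and LSO1 among others. Points are coloured by process and bars are SE. LEU1, OAC1 and BAT1 lie low in both, ARG1 and ARG4 high in both, HSP12, HSP26 and FIT2 low in hel2∆ but high on the y axis, and PHO84 and VTC3 high in hel2∆ but low on the y axis.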

How the data were processed

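The authors deposited 1 table of raw counts of reads per gene with a column for each of 8 libraries. Per the study's methods, reads were mapped to coding sequences without adaptor trimming. The submitters' notes name Bowtie and the build sacCer3, and a counting program, its use of strand and the handling of shared reads are not given in the sources used here. Genes with low counts were removed by filterByExpr of edgeR 4.0.16 (R 4.3.3) and libraries were scaled by TMM. A single quasi-likelihood fit took all 8 libraries, with 1 coefficient for each strain. Its F test (two-sided) was applied to hel2∆ against wild type, to the triple against the double mutant, and to their interaction. Benjamini-Hochberg adjustment covered the 6087 genes tested, and a gene was called at 0.05. With 2 libraries a strain, an exact test of a single value cannot go below p = 0.333. Standard errors were derived from the F statistic as |log2 fold change|/√F. For centred levels, a prior count of 2 was added before taking log2 CPM. The scripts were tested on simulated data.

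Genes, 5804 of 6337 by locus tag, were matched to RefSeq R64, and 138 tested genes had a near-identical copy (at least 95% identity over 100 bases, BLAST 2.17.0). Genes named were those past the threshold, members of the leucine, phosphate and arginine lists, called members of the other lists, the 3 of largest change in lists with a median over 0.15 from that of all genes, deleted, marker and neighbouring genes, and chosen regulators. Some of these genes are not reported here. Other genes of a list are given as examples chosen after their values were seen. Lists were written from general knowledge of yeast, except RQC targets and RRTs, which are names from the study's supplement. Strain members and lists were chosen with earlier results of these data known. The 10 alternatives were RLE scaling, library totals, no filter, DESeq2 1.42.0, a fit to the 4 libraries alone, a replicate block and each of the 4 libraries left out.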

Additional observations from a re-analysis of the deposited data

Results flagged for a closer look

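The difference between strains with HEL2 replaced by LEU2 and strains with HEL2 intact was not the same in ncs2∆elp6∆ cells as in cells with NCS2 and ELP6, by a test of the interaction, in the genes given here, all of which are named above. Values are the log2 fold change of ncs2∆elp6∆hel2∆ over ncs2∆elp6∆ minus that of hel2∆ over wild type. The difference was positive in stress and carbohydrate genes, at 4.24 for HSP26, 3.72 for DDR2, 2.98 for HSP12, 1.69 for TDH1, 1.36 for SOL4, 1.20 for HXK1, 1.16 for GAD1 and 0.70 for GSY1. It was also positive in iron genes, at 3.91 for LSO1 and 2.27 for FIT2. In the phosphate list it was negative, at -2.17 for PHO89, -1.35 for PHO84, -1.09 for VTC3, -0.82 for PHO81 and -0.67 for VTC4, with the exception of PHM8 at 1.32. GSY1 did not pass without hel2∆ replicate 2 or wild type replicate 2, and LSO1 did not pass without hel2∆ replicate 1, wild type replicate 1 or wild type replicate 2. MET17 transcripts were abundant in both strains without U34 modification and near 0 in hel2∆ and wild type. Only the strains without U34 modification carried the HIS3MX and URA3 markers. U34 modification, MET17 and these markers, and likewise HEL2 deletion and LEU2, cannot be told apart in these differences.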

How the results depend on the processing

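Of the 40 genes past the threshold in hel2∆ against wild type, 17 kept the call under all 10 alternatives, 23 lost it under at least 1, and 0 changed sign. The count was 61 with DESeq2 (29 higher, 32 lower), 17 when only the 4 libraries of hel2∆ and wild type were fitted, and 19 to 30 when 1 library was left out. With the replicate block it was 37 genes (17 higher, 20 lower), of which 35 were among the 40. ARO4, LYS20, GSY1, LSO1 and REE1 lost the call there. Same-numbered libraries of the 2 strains deviated together with a correlation of 0.476 over 6087 genes. The labels show only a shared number, and whether same-numbered libraries also shared a harvest or preparation is not given. The main fit did not include this pairing. In the interaction, 69 genes passed, with 153 under DESeq2, 119 with the replicate block and 54 to 140 with 1 library left out. Between ncs2∆elp6∆hel2∆ and ncs2∆elp6∆, 422 genes passed (171 higher, 251 lower), with 645 under DESeq2, 663 with the replicate block, 532 to 587 with 1 hel2∆ or wild type library left out and 580 (133 higher, 447 lower) with library totals. Causes of these differences were not tested. With 2 libraries per strain small changes are hard to detect, and low counts such as those of LSO1, DAN1 and SDD1 limit their values.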
